A study of Mus musculus with 13 samples.

Results

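The 38 genes described here are cell cycle and proliferation genes, chosen by name from the 55416 genes of a count table of mouse brain RNA. They fall into 24 genes of G2 phase and mitosis (called mitotic genes here), 10 genes of S phase and 4 regulators. All 38 were among the 22507 genes that passed the filter on low counts. The study sequenced messenger RNA of mouse brains, with 4 groups and 13 libraries in all. KO mice carried Slco1c1-iCreERT2;Pdcd10fl/fl and had 50 µg of 4-hydroxytamoxifen on postnatal day 1. The Slco1c1 promoter drives the inducible Cre recombinase in brain endothelial cells, where Pdcd10 (also called Ccm3) is then deleted. Flox mice were Pdcd10fl/fl littermates, and the design text does not say clearly whether these were injected too. Hypoxia was 12% oxygen for 7 days and normoxia was 21% oxygen. There were 4 KO and 3 flox libraries in hypoxia, and 3 KO and 3 flox libraries in normoxia. No age at harvest is given in the labels or design text. The deletion, the Cre transgene and any injection of KO mice alone cannot be told apart.

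A dividing cell switches its genes on in waves. At the border of G1 and S phase, E2F factors turn on genes that copy DNA: the Mcm2 to Mcm7 subunits of the helicase that opens the double strand, its partner Cdc45, the sliding clamp Pcna, and Rrm2 and Tyms, which supply nucleotides. Later, the kinase Cdk1 with its cyclins drives entry into mitosis. Kinesins and spindle proteins (Kif11, Tpx2, Prc1) then build the spindle, checkpoint kinases (Bub1, Bub1b) watch the chromosomes, and the anaphase-promoting complex with Cdc20 and Ube2c ends mitosis by marking cyclins for destruction. In the postnatal brain most neurons have left the cycle, and glial precursors, endothelium, microglia and blood-borne cells can still divide. Mice without endothelial Pdcd10 develop cavernous malformations, clusters of enlarged and leaky brain vessels.

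Libraries held between 42090437 and 71216636 counts. Pdcd10 (ENSMUSG00000027835), the gene targeted in brain endothelium, averaged 16.4 ± 1.09 CPM in KO (SD, n = 4) and 17.4 ± 0.194 CPM in flox (n = 3) in hypoxia. In normoxia it averaged 16.9 ± 1.07 CPM in KO and 17.1 ± 0.799 CPM in flox (SD, n = 3 each). Its level in whole tissue therefore does not check the genotype labels. All libraries are labelled male, yet 4 of them (KO hypoxia replicates 3 and 4, KO normoxia replicate 3 and flox normoxia replicate 3) held 25181 to 53001 counts of Xist and at most 1 count of 4 Y-linked genes. None of the 4 is a flox hypoxia library, so these counts are unevenly spread between KO and flox in hypoxia. Calls of members are therefore also given for the 9 libraries with Y-linked transcripts (the Y-positive libraries), which keep 2 KO libraries in hypoxia. Scores, medians and counts of direction are not given for these 9 alone. KO hypoxia replicate 1 stood apart from the others of its group. Its counts differed from theirs by a chi-square per degree of freedom of 42.3 to 48.0, where every other pair within a group came to at most 16.9. Astrocyte, oligodendrocyte precursor and microglial marker genes were detected in every group, as brain tissue would give.

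The upstream sequences of the 6 members called in any comparison are shown because members of the waves carry different short elements. Mitotic genes are known for the cell cycle genes homology region (CHR, searched as TTTGAA) and for CCAAT boxes, and S-phase genes for E2F elements (searched as TTTNGCGC and, in a short form, as TTCCCGC). RefSeq promoters of build GRCm38.p6, from 250 bases before to 50 bases after the gene start, were at hand for 31 of the 38 members and for 27025 genes in all. That build is older than the GRCm39 of the counts. Sequences run 5′ to 3′ along the gene, and capitals mark a match to any of these motifs on either strand. The window of Ube2c, the ubiquitin-conjugating enzyme of the anaphase-promoting complex, lies on the plus strand at chr2:164769679-164769978. The other 5 lie on the minus strand, at chr10:69352863-69353162 for Cdk1, chr1:189688037-189688336 for the kinetochore protein Cenpf, chr4:118437294-118437593 for the anaphase activator Cdc20, chr17:24251360-24251659 for cyclin F (Ccnf) and chr1:20820263-20820562 for the helicase subunit Mcm3.
Ube2c: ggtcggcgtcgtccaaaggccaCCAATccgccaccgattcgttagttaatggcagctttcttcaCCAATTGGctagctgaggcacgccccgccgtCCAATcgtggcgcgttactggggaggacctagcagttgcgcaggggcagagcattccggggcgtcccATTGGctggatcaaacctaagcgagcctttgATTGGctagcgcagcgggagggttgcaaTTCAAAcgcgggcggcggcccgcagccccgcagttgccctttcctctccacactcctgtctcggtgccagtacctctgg
Cdk1: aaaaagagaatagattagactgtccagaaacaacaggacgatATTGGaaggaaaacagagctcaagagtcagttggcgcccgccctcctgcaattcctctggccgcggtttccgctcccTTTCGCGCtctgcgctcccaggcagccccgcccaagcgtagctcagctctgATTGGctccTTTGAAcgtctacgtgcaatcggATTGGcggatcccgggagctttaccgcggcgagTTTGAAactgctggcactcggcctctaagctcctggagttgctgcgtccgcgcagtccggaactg
Cenpf: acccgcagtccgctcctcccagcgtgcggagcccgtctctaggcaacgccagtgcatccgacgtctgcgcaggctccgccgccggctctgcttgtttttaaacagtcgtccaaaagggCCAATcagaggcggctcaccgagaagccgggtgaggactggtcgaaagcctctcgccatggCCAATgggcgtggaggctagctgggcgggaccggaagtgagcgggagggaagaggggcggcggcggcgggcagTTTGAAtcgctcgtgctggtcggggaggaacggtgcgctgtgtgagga
Cdc20: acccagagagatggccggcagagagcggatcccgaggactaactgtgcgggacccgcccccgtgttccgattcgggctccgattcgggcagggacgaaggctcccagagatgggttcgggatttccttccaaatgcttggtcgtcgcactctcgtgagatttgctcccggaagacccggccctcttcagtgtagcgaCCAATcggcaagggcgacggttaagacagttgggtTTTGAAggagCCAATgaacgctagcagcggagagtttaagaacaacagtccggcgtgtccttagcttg
Ccnf: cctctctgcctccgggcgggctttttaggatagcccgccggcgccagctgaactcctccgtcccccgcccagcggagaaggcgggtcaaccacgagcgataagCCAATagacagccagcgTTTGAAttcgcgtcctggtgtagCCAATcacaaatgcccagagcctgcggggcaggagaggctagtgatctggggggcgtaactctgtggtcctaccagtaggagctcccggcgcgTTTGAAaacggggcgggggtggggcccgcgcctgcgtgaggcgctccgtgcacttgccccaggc
Mcm3: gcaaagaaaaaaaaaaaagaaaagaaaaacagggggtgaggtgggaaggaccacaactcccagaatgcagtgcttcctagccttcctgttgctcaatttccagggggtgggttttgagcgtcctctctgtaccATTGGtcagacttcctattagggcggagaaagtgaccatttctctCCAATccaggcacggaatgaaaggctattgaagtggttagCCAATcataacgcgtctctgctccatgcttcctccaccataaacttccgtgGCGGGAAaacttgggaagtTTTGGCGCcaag

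Each of the 5 mitotic windows held at least 1 CHR match and at least 2 CCAAT matches, and Cdk1 also held a long E2F match. Ube2c had 6 CCAAT matches, a pair of which overlap, and 1 CHR match on the opposite strand. The Mcm3 window held no CHR match, 3 CCAAT matches and 1 E2F match of each form near its end. Among all members with a promoter, CHR was found in 15 of 20 mitotic genes (75%), in 2 of 9 S-phase genes (22.2%) and in 18.1% of all promoters of the same length. CCAAT was in 18 of 20 mitotic genes (90%), in 8 of 9 S-phase genes (88.9%) and in 37.9% of all promoters. The long E2F form was in 1 of 20 mitotic genes (5%), in 4 of 9 S-phase genes (44.4%) and in 1.38% of all promoters, and the short form in none of the mitotic genes, 2 of 9 S-phase genes (22.2%) and 4.66% of all promoters. Both CHR and CCAAT were found in 15 of 20 mitotic genes (75%), 2 of 9 S-phase genes (22.2%) and 7.12% of all promoters. The CHR match nearest to the start began at a median position of -5 in mitotic genes, counted from 0 at the start, with a range of -98 to 40. These matches describe letters in a window and are neither sites shown to be bound nor a cause of any value below.

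**Figure D1:**
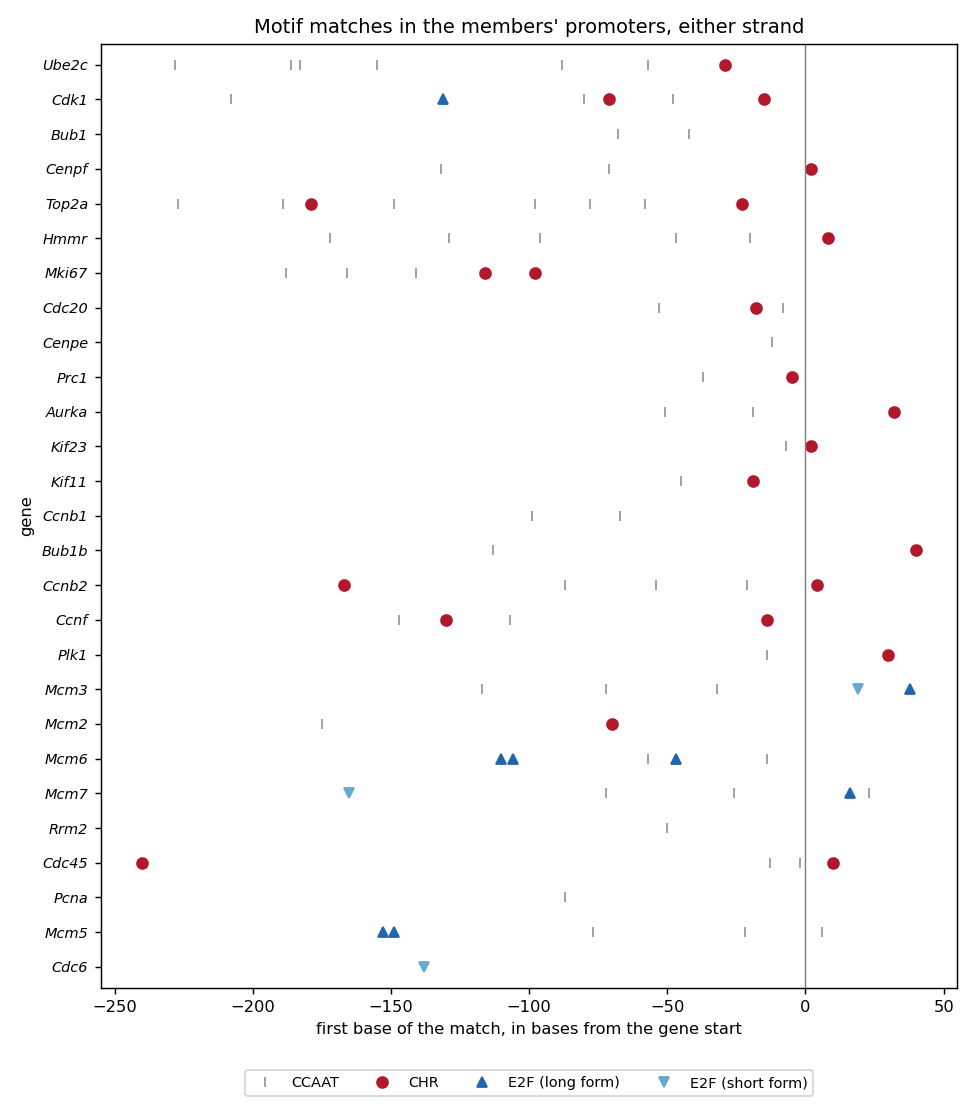
Motif matches in the promoters of the 27 members with any match, by the distance of the first base of the match from the gene start in bases (x axis, start at 0), with mitotic genes above, then S-phase genes, then the regulator Cdc6. CHR matches (red circles) lie mainly near the start in mitotic genes, and long E2F matches (dark triangles) appear in Cdk1 and in S-phase genes.

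The members are sparse transcripts in this tissue. Per length, Pcna was the highest at 13.2 ± 0.791 RPKM (counts scaled to library total and gene length, SD over all 13 libraries), followed by the transcription factor E2f1 at 4.46 ± 0.392 RPKM and the helicase subunits Mcm4 at 3.14 ± 0.320 and Mcm7 at 2.63 ± 0.213 RPKM. S-phase genes had a median of 1.20 RPKM and mitotic genes a median of 0.344 RPKM, against 2.65 RPKM over all genes tested. The highest mitotic gene was Nusap1, a microtubule-bundling spindle protein, at 0.877 ± 0.117 RPKM. At the lower end stood Esco2, a cohesin acetyltransferase, at 0.0356 ± 0.0155 RPKM, the checkpoint kinase Bub1 at 0.0837 ± 0.0454 RPKM and cyclin B1 (Ccnb1) at 0.0973 ± 0.0273 RPKM. Counts of a member in a library ran from 3 (Esco2) to 2262 (Pcna), so counting error weighs far more on the members with few counts. The coefficient of variation of CPM over the 13 libraries was 67.9% for Ube2c, 63.0% for Cdk1 and 53.9% for Bub1, and 5.69% for Pcna. It takes in differences between the groups as well as the spread within them, and does not measure counting error alone.

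The comparison of KO with flox brains in hypoxia asks what loss of endothelial Pdcd10 does under low oxygen. Ube2c, Cdk1, Cenpf and Mcm3 rose in KO brains, by 1.57-fold to 3.10-fold, and no member fell (edgeR quasi-likelihood test, Benjamini-Hochberg adjusted p under 0.05 over all genes tested). Of all 22507 genes, 6.78% were called higher and 2.28% lower in this comparison, so 4 of 38 members is a share near that of all genes. The direction was less evenly spread: the log2 fold change was above 0 for 34 of 38 members, against 47.9% of all genes. The members share cells and libraries and are not independent of each other. More dividing cells and more RNA per cell cannot be told apart in bulk tissue.

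Ube2c stood at 2.31, 1.05, 1.49 and 1.14 CPM in the KO hypoxia libraries (replicates 1 to 4), against 0.463, 0.557 and 0.430 CPM in the flox hypoxia libraries. Each KO library thus lay above each flox library and replicate 1 was the highest. This was a log2 fold change of 1.63 ± 0.35 (SE, edgeR adjusted p = 0.00684), from 51 to 136 counts in KO and 18 to 26 in flox libraries. The 9 Y-positive libraries gave 1.80 (edgeR adjusted p = 0.0113), and it was 1.35 without KO hypoxia replicate 1 (edgeR adjusted p = 0.0185). Cdk1, the kinase that drives entry into mitosis, had 1.39, 0.577, 1.10 and 1.25 CPM in KO and 0.386, 0.450 and 0.263 CPM in flox libraries in hypoxia. Its groups did not overlap either, although KO replicate 2 came close to the flox libraries. Cdk1 had a log2 fold change of 1.55 ± 0.40 (SE, edgeR adjusted p = 0.0237). That call was lost without KO replicate 1 or 4 or any of the 3 flox hypoxia libraries (edgeR adjusted p between 0.0522 and 0.103), while the 9 Y-positive libraries gave 1.42 (edgeR adjusted p = 0.0779).

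Cenpf, a kinetochore protein of late G2 and mitosis, had 2.19, 1.80, 2.37 and 2.22 CPM in KO hypoxia libraries, against 0.810, 1.26 and 1.27 CPM in flox hypoxia libraries. The 4 KO values lay close together and all above flox. Cenpf thus had a log2 fold change of 0.95 ± 0.22 (SE, edgeR adjusted p = 0.0121). It came to 0.76 without flox hypoxia replicate 1, the lowest library (edgeR adjusted p = 0.0772), and to 0.85 in the 9 Y-positive libraries (edgeR adjusted p = 0.0618). The Cenpf call was kept under 7 of the 10 other settings tried. Flox hypoxia was also the lowest of the 4 groups for this gene, whose flox normoxia libraries held 1.49, 1.63 and 1.60 CPM. Mcm3 had 4.54, 3.96, 4.99 and 4.88 CPM in KO hypoxia libraries and 2.66, 2.51 and 3.66 CPM in flox hypoxia libraries. Flox replicate 3 came nearest to the KO libraries, and the groups did not overlap. Mcm3 had a log2 fold change of 0.65 ± 0.15 (SE, edgeR adjusted p = 0.0104). Without flox hypoxia replicate 1 it was 0.58 (edgeR adjusted p = 0.0640), without flox hypoxia replicate 2 it was 0.55 (edgeR adjusted p = 0.0740), and the 9 Y-positive libraries gave 0.54 (edgeR adjusted p = 0.118).

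**Figure D2:**
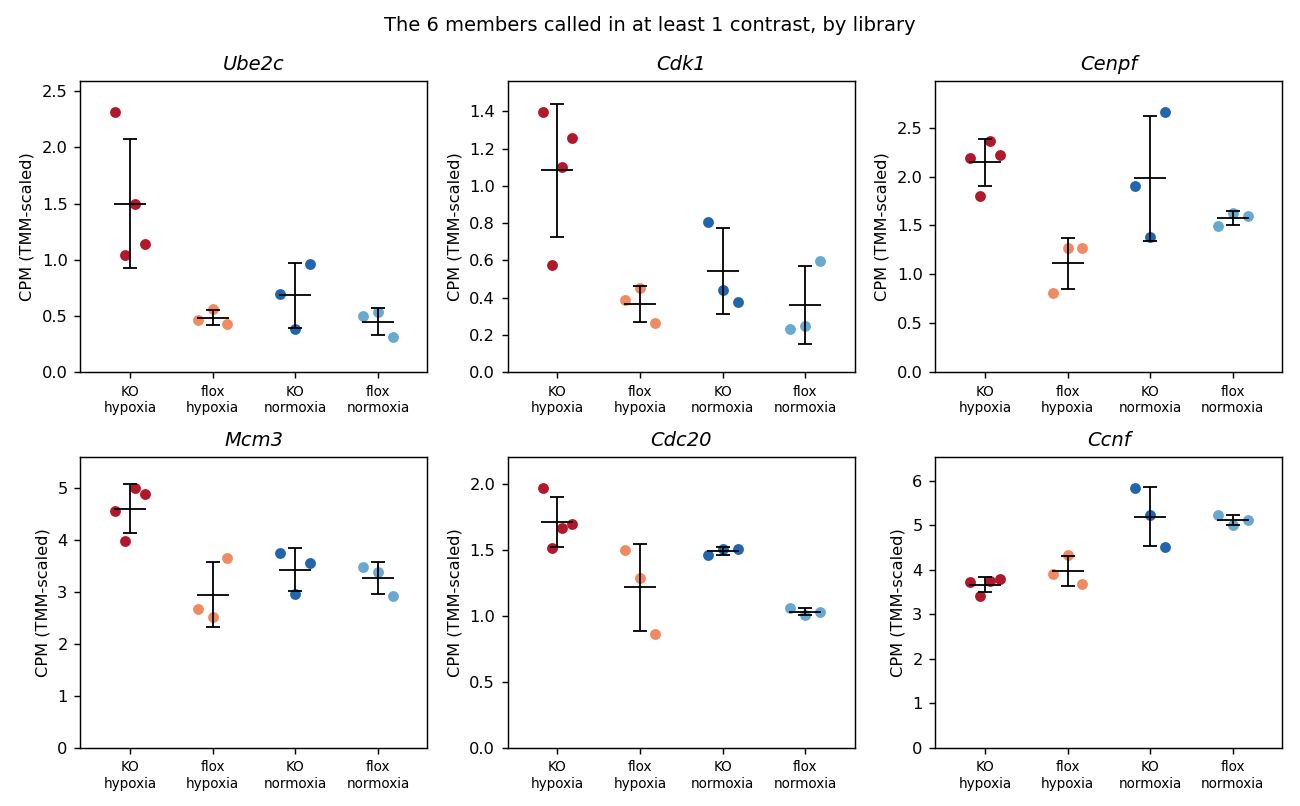
CPM (counts scaled to the TMM-adjusted library total, y axis from 0) of the 6 members called in at least 1 contrast, with a point per library, the mean as a line and the SD as a bar, for KO hypoxia (n = 4), flox hypoxia, KO normoxia and flox normoxia (n = 3 each). Ube2c is highest in KO hypoxia (1.05 to 2.31 CPM), and Ccnf is lower in both hypoxia groups (3.41 to 4.33 CPM) than in both normoxia groups (4.52 to 5.84 CPM).

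The proliferation marker Mki67, present in all cycling cells, had 5.82, 4.52, 6.36 and 4.32 CPM in KO and 3.16, 3.99 and 4.16 CPM in flox brains in hypoxia. The topoisomerase Top2a, which untangles chromosomes before mitosis, had 4.75, 4.00, 4.50 and 4.12 CPM in KO and 2.51, 2.59 and 3.27 CPM in flox. For both genes every KO library lay above every flox library, and neither passed the threshold, with log2 fold changes of 0.49 ± 0.18 for Mki67 and 0.64 ± 0.21 for Top2a (SE, edgeR adjusted p = 0.116 and 0.0676). Cyclin B1 (Ccnb1), the partner of Cdk1, had 0.510, 0.360, 0.566 and 0.269 CPM in KO and 0.579, 0.236 and 0.263 CPM in flox. Its groups overlapped throughout, and its log2 fold change of 0.25 ± 0.36 had a 95% interval of -0.52 to 1.02. Cyclin A2 (Ccna2) stood at 0.25 ± 0.18 (edgeR adjusted p = 0.447) and cyclin B2 (Ccnb2) at 0.09 ± 0.21 (edgeR adjusted p = 0.864). The checkpoint kinase Bub1 had the largest log2 fold change among the genes not called, 1.16 ± 0.52 (edgeR adjusted p = 0.190), on 0.202 to 0.765 CPM in KO and 0.129 to 0.406 CPM in flox. The remaining mitotic genes lay between -0.13 for the kinase Plk1 and 0.76 for the chromosomal passenger kinase Aurkb. In all, 21 of 24 mitotic genes had a log2 fold change above 0, against 47.9% of all genes. Of the 24, 3 were called higher, against 6.78% of all genes. An unadjusted p under 0.05 with KO higher was seen for 9 of 24, against 12.7% of all genes. Groups did not overlap, with KO higher, for 7 of 24, against 11.5% of all genes.

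Among S-phase genes all 10 had a log2 fold change above 0 in hypoxia, against 47.9% of all genes. Mcm3 alone was called, where 6.78% of all genes were called higher. Mcm2 had 6.24, 4.96, 4.92 and 5.76 CPM in KO and 4.50, 4.05 and 4.47 CPM in flox libraries. Every KO library was above flox, with a log2 fold change of 0.33 ± 0.12 (SE, edgeR adjusted p = 0.0938). Pcna had 33.6, 30.1, 31.3 and 34.5 CPM in KO and 32.9, 28.6 and 31.5 CPM in flox, which overlapped. With a log2 fold change of 0.06 ± 0.07, it had a 95% interval of -0.08 to 0.20. Mcm subunits, which form 1 complex, spread from 0.03 ± 0.09 for Mcm4 to 0.65 ± 0.15 for Mcm3. Tyms, the thymidylate synthase, was at 0.40 ± 0.17 and Rrm2, the small subunit of ribonucleotide reductase, at 0.08 ± 0.21 (edgeR adjusted p = 0.166 and 0.877).

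Of the 4 regulators, E2f1 was the only member whose hypoxia libraries all lay lower in KO, at 11.7, 13.5, 12.8 and 12.4 CPM against 15.2, 14.0 and 15.8 CPM in flox. The log2 fold change of this activator of S-phase genes was -0.25 ± 0.08 (SE, edgeR adjusted p = 0.0639), so it was not called. Foxm1, the activator of mitotic genes, was at 0.34 ± 0.18 (edgeR adjusted p = 0.269), and Cdc6, which loads the helicase, at 0.25 ± 0.33 (edgeR adjusted p = 0.728). Esco2, with 3 to 23 counts per library, was at 0.34 ± 0.51 (edgeR adjusted p = 0.756). Across all 38 members 10 did not overlap with KO higher (Mcm2, Mcm3, Mcm7, Mki67, Top2a, Cdk1, Cdc20, Cenpf, Ube2c and Prc1) and E2f1 alone did not overlap with KO lower. Over all genes 11.5% were higher and 9.37% lower without overlap. An unadjusted p under 0.05 was seen for 12 members higher and 1 lower, against 12.7% and 9.97% of all genes.

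**Figure D3:**
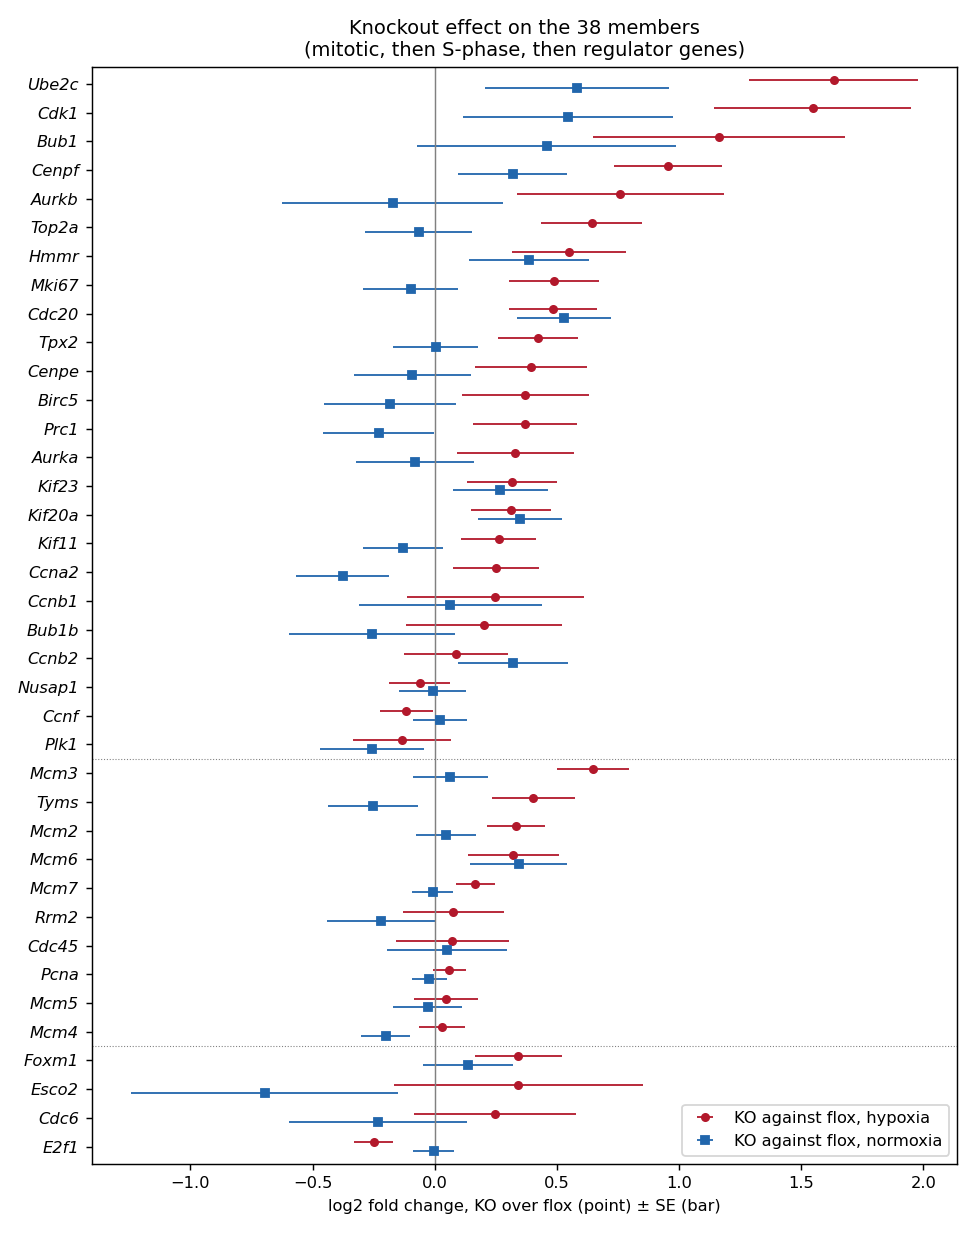
The log2 fold change of KO over flox (x axis) with its SE as a bar for each of the 38 members (y axis), in hypoxia (red circles) and in normoxia (blue squares). In hypoxia 34 of 38 points lie above 0, and in normoxia 17 of 38.

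In normoxia no member was called between KO and flox brains, where 1.96% of all genes tested were called higher and 0.369% lower. At an unadjusted p under 0.05 a single member, Cdc20, was higher and none was lower, against 7.83% and 5.74% of all genes. DESeq2 and every other setting tried also called 0 members. The log2 fold change was above 0 for 17 of 38 members, against 48.9% of all genes. Ube2c had 0.699, 0.385 and 0.963 CPM in KO and 0.503, 0.531 and 0.314 CPM in flox. The groups overlapped, with a log2 fold change of 0.58 ± 0.38 (SE, edgeR adjusted p = 0.553). Cdk1 had 0.805, 0.442 and 0.377 CPM in KO and 0.233, 0.248 and 0.599 CPM in flox, at 0.55 ± 0.43 (edgeR adjusted p = 0.647). Cenpf was at 1.91, 1.38 and 2.66 CPM in KO and 1.49, 1.63 and 1.60 CPM in flox, at 0.32 ± 0.22 (edgeR adjusted p = 0.592). For these 3 genes the 95% intervals in normoxia (-0.22 to 1.38 for Ube2c, -0.37 to 1.46 for Cdk1 and -0.15 to 0.79 for Cenpf) reach across 0 and over part of the range seen in hypoxia.

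Mki67 had 3.30, 3.95 and 4.84 CPM in KO and 4.16, 3.38 and 5.36 CPM in flox in normoxia, and Top2a had 2.58, 2.89 and 2.91 CPM in KO and 1.63, 3.38 and 3.74 CPM in flox. Both overlapped, at -0.10 ± 0.19 and -0.07 ± 0.22. Mcm3 had 3.75, 2.95 and 3.56 CPM in KO and 3.48, 3.38 and 2.92 CPM in flox, at 0.06 ± 0.15, and Mcm2 had 4.66, 4.65 and 5.38 CPM in KO and 4.24, 5.33 and 4.64 CPM in flox, at 0.05 ± 0.12. Pcna overlapped as well, with 32.1, 32.2 and 29.8 CPM in KO and 29.3, 33.5 and 32.8 CPM in flox, at -0.02 ± 0.07 (95% interval -0.18 to 0.13). E2f1 had 14.0, 16.2 and 13.6 CPM in KO and 15.5, 13.6 and 14.7 CPM in flox, at -0.00 ± 0.08. Ccnb1 had 0.423, 0.385 and 0.502 CPM in KO and 0.413, 0.336 and 0.494 CPM in flox, at 0.06 ± 0.37. Groups did not overlap for Cdc20, the kinesin Kif20a and the motility receptor Hmmr with KO higher, and for Mcm4 and Ccna2 with KO lower, where 10.5% of all genes were higher and 8.70% lower without overlap.

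Cdc20, which activates the anaphase-promoting complex, had no overlap between KO and flox in either oxygen condition. It had 1.97, 1.51, 1.67 and 1.70 CPM in KO and 1.50, 1.29 and 0.860 CPM in flox brains in hypoxia, and 1.46, 1.51 and 1.51 CPM in KO and 1.06, 1.01 and 1.03 CPM in flox brains in normoxia. KO lay above flox in each condition, by 0.49 ± 0.18 in hypoxia and 0.53 ± 0.19 in normoxia (SE, edgeR adjusted p = 0.114 and 0.216). Averaged over both conditions the log2 fold change of 0.51 ± 0.13 passed the threshold (edgeR adjusted p = 0.0200), with the same size but not the call in the 9 Y-positive libraries (0.52, edgeR adjusted p = 0.125). Elovl1, a fatty acid elongase gene that overlaps Cdc20 on the opposite strand and had 14222 counts over all libraries to the 997 of Cdc20, was at 0.09 ± 0.06 (edgeR adjusted p = 0.410). No source used here says whether counting kept the strands apart. In this average, 5 of 38 members were called higher and none lower, against 7.78% and 3.70% of all genes, and 29 of 38 were above 0, against 47.7% of all genes. The others were Ube2c at 1.11 ± 0.26, Cdk1 at 1.05 ± 0.29, Cenpf at 0.64 ± 0.16 and Mcm3 at 0.36 ± 0.11 (edgeR adjusted p = 0.00953, 0.0302, 0.0142 and 0.0403). The Mcm3 call was lost on leaving out any library other than KO hypoxia replicate 2, KO normoxia replicate 2 or flox hypoxia replicate 3 (edgeR adjusted p of 0.0530 to 0.111). The Cdk1 call was lost without KO hypoxia replicate 1 or 4, flox hypoxia replicate 1 or 3, KO normoxia replicate 1, or flox normoxia replicate 1 or 2 (edgeR adjusted p of 0.0507 to 0.101). In the 9 Y-positive libraries Cdk1 alone was called.

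Hypoxia against normoxia asks what low oxygen does within a genotype. In KO brains Ccnf fell and no member rose, where 0.622% of all genes were called higher and 0.275% lower. Ccnf encodes cyclin F, the substrate-binding part of a ubiquitin ligase that acts in G2. Its level was 3.73, 3.41, 3.76 and 3.79 CPM in KO hypoxia libraries, against 5.84, 5.23 and 4.52 CPM in KO normoxia libraries. The groups did not overlap, with a log2 fold change of -0.50 ± 0.10 (SE, edgeR adjusted p = 0.0375). In flox brains it had 3.92, 4.33 and 3.68 CPM in hypoxia and 5.22, 5.01 and 5.12 CPM in normoxia, at -0.36 ± 0.11 (edgeR adjusted p = 0.514). Flox groups did not overlap either. Averaged over genotype Ccnf fell by 0.43 ± 0.08 on the log2 scale (edgeR adjusted p = 0.0155), the only member called of 38, against 0.755% of all genes called higher and 0.298% lower, and 29 of 38 members were above 0, against 51.4% of all genes. In the 9 Y-positive libraries this average was -0.50 (edgeR adjusted p = 0.0368), while without flox hypoxia replicate 1 it was -0.43 (edgeR adjusted p = 0.0523). The call in KO alone was lost on leaving out any of several libraries (the 3 KO normoxia libraries, KO hypoxia replicates 1, 3 and 4, and flox hypoxia replicates 1 and 2), with edgeR adjusted p of 0.0508 to 0.157.

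The other members in KO brains mostly pointed the opposite way to Ccnf. The log2 fold change of hypoxia over normoxia was above 0 for 33 of 38 members in KO, against 52.5% of all genes, and for 13 of 38 in flox, against 49.4% of all genes. No member was called in flox brains, where 0.0222% of all genes were called higher and 0% lower, and DESeq2 also called 0 members. At an unadjusted p under 0.05 none was higher in flox hypoxia and 2 were lower (Ccnf and Cenpf), against 3.70% and 2.95% of all genes. In KO brains Ube2c was at 1.17 ± 0.33 (SE, edgeR adjusted p = 0.105), with each hypoxia library above each normoxia library. Ccna2, which serves both S phase and mitosis, was at 0.60 ± 0.18 and Top2a at 0.63 ± 0.21 (edgeR adjusted p = 0.127 and 0.156). Tyms was at 0.60 ± 0.17 and Mcm3 at 0.43 ± 0.14 (edgeR adjusted p = 0.111 and 0.165). At an unadjusted p under 0.05, 10 members were higher and 2 lower in KO hypoxia, against 7.98% and 6.28% of all genes. Without overlap, 8 members were higher and 2 lower in KO hypoxia (6.59% and 6.04% of all genes), and 0 higher and 3 lower in flox hypoxia (6.56% and 5.98% of all genes). In flox brains Cenpf was at -0.51 ± 0.24 (edgeR adjusted p = 0.743), with no overlap and hypoxia lower, and Mki67 was at -0.20 ± 0.20 (edgeR adjusted p = 0.948).

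Whether the KO difference changes with oxygen was tested as the interaction, the difference between the KO effect in hypoxia and that in normoxia. No member was called, and no gene of all 22507 (0%) was. DESeq2 called 0 members as well. At an unadjusted p under 0.05, 5 members were higher, Mcm3 at 0.58 ± 0.21, Tyms at 0.66 ± 0.25, Mki67 at 0.59 ± 0.27, Top2a at 0.71 ± 0.30 and Ccna2 at 0.63 ± 0.26, and none was lower, against 4.09% and 3.18% of all genes. For Ube2c the interaction was 1.05 ± 0.51 with a 95% interval of -0.04 to 2.14, and for Cdk1 1.00 ± 0.59 with an interval of -0.26 to 2.26. The log2 interaction was above 0 for 31 of 38 members, against 51.5% of all genes. A larger KO difference in hypoxia than in normoxia was therefore not shown for any member by this test.

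**Figure D4:**
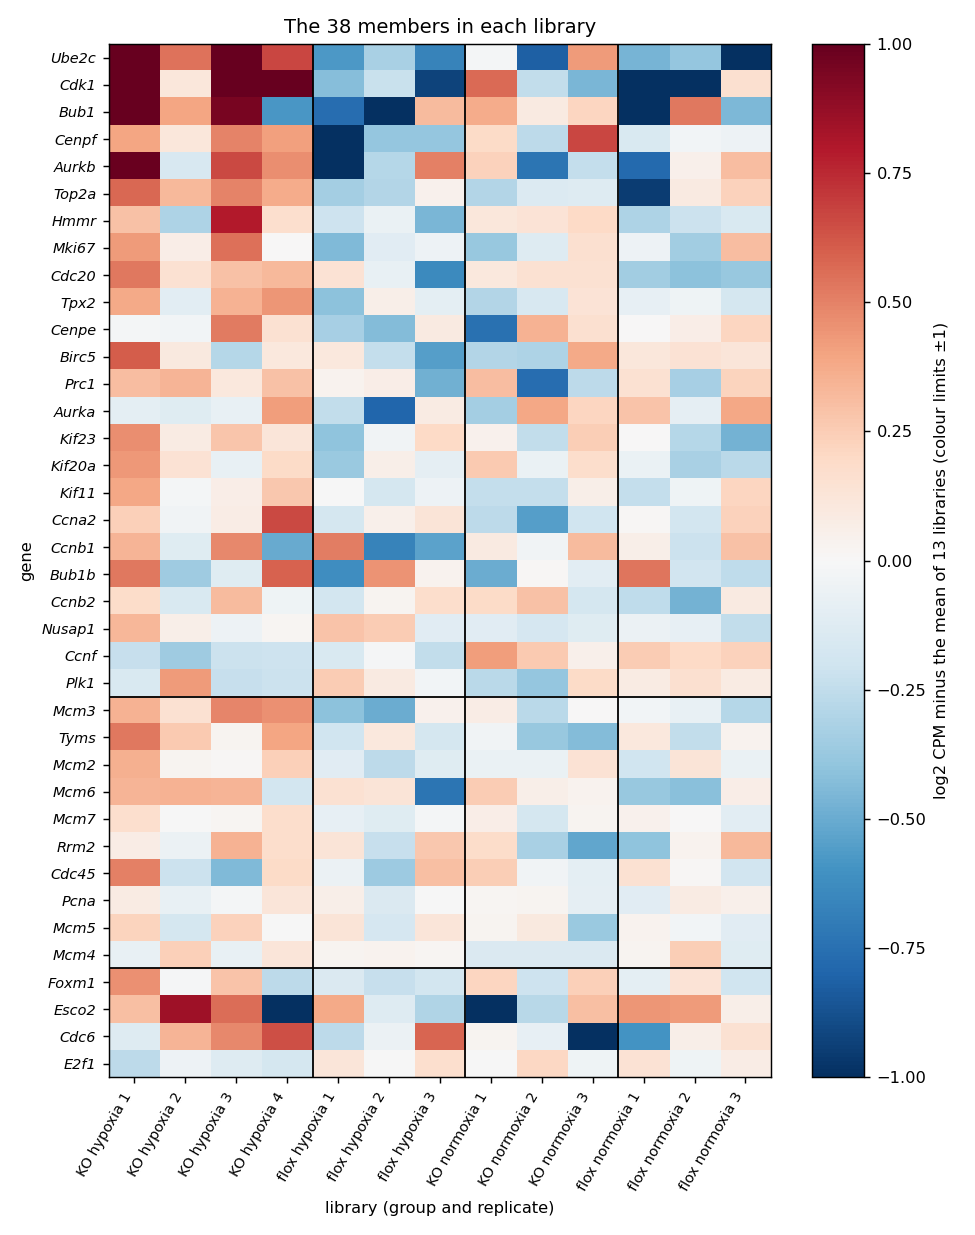
Log2 CPM of each of the 38 members (rows, mitotic, S-phase and regulator genes parted by lines) minus its mean over the 13 libraries (columns, by group and replicate), with colours limited to ±1. Rows within each list are ordered from the highest to the lowest log2 fold change of KO over flox in hypoxia. That the upper rows, from Ube2c to Mki67, are mostly above their mean in the 4 KO hypoxia libraries follows from this order. Ccnf is below its mean in those libraries.

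S-phase and mitotic genes were compared by their mean log2 CPM in each library. Mitotic genes came to 1.02, 0.60, 0.87 and 0.78 in KO hypoxia libraries and 0.29, 0.38 and 0.40 in flox hypoxia libraries. In normoxia they came to 0.52, 0.41 and 0.64 in KO and 0.37, 0.42 and 0.54 in flox libraries. KO hypoxia lay above flox hypoxia throughout, while KO hypoxia replicate 2 at 0.60 lay under KO normoxia replicate 3 at 0.64. S-phase genes came to 2.68, 2.47, 2.52 and 2.59 in KO hypoxia, and 2.39, 2.27 and 2.39 in flox hypoxia libraries. In normoxia S-phase genes stood at 2.49, 2.30 and 2.28 in KO and 2.35, 2.40 and 2.38 in flox. Hypoxia groups again did not overlap, and KO normoxia replicate 1 at 2.49 reached into the KO hypoxia range. The mean of the mitotic less that of the S-phase genes averaged -1.75 ± 0.11 in KO hypoxia (SD, n = 4) and -1.99 ± 0.10 in flox hypoxia (n = 3), and -1.83 ± 0.17 in KO and -1.93 ± 0.08 in flox in normoxia (n = 3 each). The groups overlapped in normoxia on this difference. In hypoxia they did not, although the lowest KO value of -1.87 lay close to the highest flox value of -1.89. KO hypoxia replicates 3 and 4, but no flox hypoxia library, were among those with high Xist and almost no Y-linked counts. Replicate 3, of this kind, had the highest difference in KO hypoxia (-1.65), KO normoxia (-1.64) and flox normoxia (-1.84). The Y-positive KO hypoxia replicates 1 and 2 stood at -1.66 and -1.87. The part of this imbalance in the scores was not tested. The KO normoxia libraries ran from -1.96 to -1.64, across the whole KO hypoxia range of -1.87 to -1.65.

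**Figure D5:**
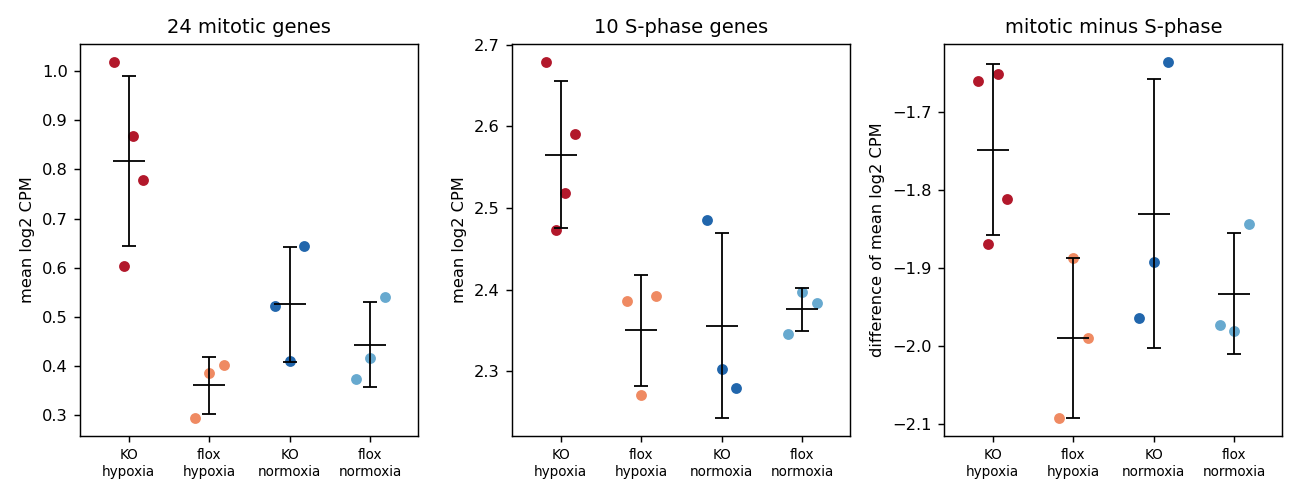
Mean log2 CPM per library of the 24 mitotic genes (left) and of the 10 S-phase genes (middle), and the difference of both means (right), with a point per library, the group mean as a line and the SD as a bar. In the left and middle panels the 4 KO hypoxia libraries lie above the 3 flox hypoxia libraries.

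Per gene, the median log2 fold change of KO over flox in hypoxia was 0.37 over mitotic and 0.12 over S-phase genes, and -0.01 over all genes tested. In normoxia these medians were -0.00 and -0.02, with -0.00 over all genes. Within KO, hypoxia over normoxia had medians of 0.23 for mitotic and 0.15 for S-phase genes, and within flox -0.07 and -0.04. For the interaction they were 0.44 and 0.20. With Cdc6 and Esco2 counted as S-phase genes, the S-phase median in hypoxia became 0.21. KO hypoxia held the highest of the 4 group means for 29 of 38 members, 18 of 24 mitotic and 9 of 10 S-phase genes, against 30.1% of all genes. The summed level of the 24 mitotic genes was 45.6 to 56.8 CPM in KO and 38.3 to 41.5 CPM in flox in hypoxia, and 40.7 to 46.3 CPM in KO and 40.7 to 45.9 CPM in flox in normoxia.

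Other cell cycle genes were counted alongside the members, to be read against the 6.78% of all genes called higher and the 2.28% called lower in KO hypoxia, and the 47.9% above 0. Of 34 further mitosis genes, 2 rose in KO over flox in hypoxia: the kinetochore gene Spc25 (1.07 ± 0.27) and the spindle gene Ckap2l (0.83 ± 0.25; SE, edgeR adjusted p = 0.0191 and 0.0464). That is a share near that of all genes. None fell, and 30 of 34 were above 0, with a median of 0.19. Of 32 further replication genes none was called in any of these contrasts, with 22 of 32 above 0 in hypoxia. At an unadjusted p under 0.05, 2 of the 32 were higher, against 12.7% of all genes. Of 14 G1 cyclins, kinases and their activators, 3 rose in hypoxia: the D cyclins Ccnd1 (0.58 ± 0.09) and Ccnd3 (0.66 ± 0.09) and the kinase Cdk2 (0.91 ± 0.15; edgeR adjusted p = 0.000895, 0.000252 and 0.00111). Cdk2 averaged 4.87 ± 0.769 CPM in KO hypoxia (SD, n = 4) and 2.60 ± 0.110 CPM in flox hypoxia libraries (n = 3). Ccnd3 also rose in normoxia (0.40 ± 0.10, edgeR adjusted p = 0.0372). Of 17 inhibitors and brakes of the cycle tested, 3 rose in hypoxia, the inhibitor Cdkn1a (0.99 ± 0.16), the pocket protein Rbl1 (0.83 ± 0.18) and cyclin G1, Ccng1 (0.25 ± 0.05; edgeR adjusted p = 0.000762, 0.00734 and 0.00916). Cdkn1a averaged 27.0 ± 3.82 CPM in KO and 13.6 ± 0.675 CPM in flox brains in hypoxia (SD, n = 4 and 3). Ccng1 rose in normoxia as well (0.34 ± 0.06, edgeR adjusted p = 0.00500). Of 13 further E2F and DREAM complex genes tested, E2f2 alone rose in hypoxia (1.14 ± 0.32, edgeR adjusted p = 0.0347), again a share near that of all genes.

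Markers of other cell types of the brain and blood were counted beside the members. Of all genes tested, 6.78% were called higher and 2.28% lower in KO in hypoxia. In normoxia these shares were 1.96% and 0.369%. In hypoxia all 10 endothelial markers were called higher in KO, and their summed level was 391 to 653 CPM in KO and 206 to 224 CPM in flox libraries. In normoxia all 10 were called as well, at 305 to 336 CPM in KO and 139 to 157 CPM in flox, where no member was called. Of 6 pericyte markers 5 were called higher in each oxygen condition, with 380 to 505 CPM in KO and 250 to 257 CPM in flox in hypoxia. Microglial markers were called for 6 of 8 genes in hypoxia and for none in normoxia, at 344 to 435 CPM in KO and 287 to 300 CPM in flox in hypoxia. Of 9 tested leukocyte markers 3 were higher in hypoxia (11.3 to 30.5 CPM in KO, 7.57 to 12.8 CPM in flox) and 1 in normoxia. Of 7 tested erythroid markers 4 were higher in hypoxia (1823 to 8321 CPM in KO, 342 to 389 CPM in flox) and 3 in normoxia. The sums include the hemoglobin genes Hba-a1 and Hbb-bt. Klf1, Epor and Tfrc were called in neither condition (edgeR adjusted p = 0.374, 0.715 and 0.325 in hypoxia). Gata1, at 0 in every flox hypoxia library, did not pass the filter and was not tested. Of 8 oligodendrocyte precursor markers Olig1 alone was called higher in hypoxia, with a summed level of 326 to 384 CPM in KO and 332 to 335 CPM in flox. None of the 8 was called in normoxia. Among 12 markers of neural progenitors and neuroblasts 4 were lower in KO in hypoxia and none higher (180 to 189 CPM in KO, 201 to 205 CPM in flox). In normoxia 2 of the 12 were lower and none higher. Among 8 astrocyte markers 5 were higher in hypoxia (3041 to 3914 CPM in KO, 2085 to 2152 CPM in flox). In normoxia 3 astrocyte markers were higher and 1 lower. The part of these cell types in the members' values was not tested.

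Some members share sequence or strand with other genes. The processed copy Ccnb2-ps held 2120 counts over all libraries to the 673 of Ccnb2, Ccnb1-ps held 109 to the 299 of Ccnb1, Pcna-ps2 held 2538 to the 22627 of Pcna and Tyms-ps held 65 to the 1256 of Tyms, so the values of these 4 members are uncertain. In an annotation of another build, 13 of 38 members overlap a gene on the opposite strand, among them Mcm7, Cdc45, Ccna2, Kif20a and Prc1. The opposite-strand gene of Ube2c, Tnnc2, held 6 counts.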

How the data were processed

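Brain messenger RNA was sequenced in 13 libraries, grouped by genotype and oxygen from the labels. The authors deposited raw counts and, for the same 55416 genes, RPKM values. Per the submitters' processing notes HISAT2, edgeR and GRCm39 were used, without versions or roles. Each deposited RPKM is the count over the library total and a gene length that varied between libraries by at most 9.8e-15 of itself, over 35248 genes. The strand setting of the counting is not given in the sources used here. Members and lists were chosen with earlier results of these data known.

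The tests used edgeR 4.0.16 (R 4.3.3) on the counts: filterByExpr (22507 genes kept), TMM scaling and the quasi-likelihood fit of 4 group means to all libraries (common dispersion 0.00967). The 7 contrasts were tested, with Benjamini-Hochberg adjustment over all genes and a threshold of 0.05. CPM values are TMM-scaled, log2 CPM values have a prior count of 2, and standard errors come from the F statistic. Intervals cover 95%. A count of 0 allows up to 3 counts, or 0.0421 to 0.0713 CPM, which covers counting error only.

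Members called in any contrast, and Mki67, Top2a, Cdk1, Ccnb1, Mcm2, Pcna and E2f1, were given per library. Of the other lists, up to 4 called genes per contrast were named. The labels name no animal for a library, so p-values measure the spread between libraries, which differed within a group by a chi-square per degree of freedom of at least 4.44. No batch or date was in the labels. Alternatives were DESeq2 1.42.0, a replicate block, RLE scaling, library totals alone, a minimum of 1 CPM in 3 libraries, no filter, limma-trend 3.58.1 with log2(RPKM + 0.1) or log2(RPKM + 1), fits to the libraries compared, the 9 libraries with Y-linked transcripts, and leaving out each library. The edgeR steps were tested on simulated data. Promoters came from RefSeq tables of GRCm38.p6.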

Additional observations from a re-analysis of the deposited data

Results flagged for a closer look

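In the KO hypoxia group of 4 libraries, the highest or the lowest library was set against the others by Dixon's criterion, which chance meets in about 1 in 20 groups. It was applied once to each of 40 quantities, the CPM of the 38 members and the mean log2 CPM of the mitotic and of the S-phase genes, and 4 met it. Aurka, the spindle pole kinase, was at 2.04 CPM in replicate 4, against 1.39 to 1.44 CPM in the other 3 libraries. Mcm6 was at 8.27 CPM in replicate 4, against 11.9 to 12.0 CPM in the others. Plk1, a mitotic kinase, was at 1.87 CPM in replicate 2, against 1.18 to 1.24 CPM in the others. Ccnf was at 3.41 CPM in replicate 2, against 3.73 to 3.79 CPM in the others, and its call in KO brains was kept without that library. Aurka, Mcm6 and Plk1 were called in no contrast.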

How the results depend on the processing

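No called log2 fold change of a member changed sign under any alternative. Medians near 0 did: in normoxia that of mitotic genes was -0.00 and ran from -0.07 to 0.10 on leaving out each library, and that of S-phase genes was -0.02 and ran from -0.06 to 0.01. No member was called in normoxia, in flox brains between oxygen conditions or for the interaction under any setting. For KO over flox in hypoxia (4 members), the count was 1, Ube2c alone, in the 9 Y-positive libraries, and 1 to 7 on leaving out each library: 1 without flox hypoxia replicate 1, 2 without flox hypoxia replicate 2 and 7 without KO hypoxia replicate 2. Ube2c was called there under each of the 10 other settings and without each of the 13 libraries. Mcm3 was called there under 9 of these 10 settings, Cdk1 under 8 and Cenpf under 7. For hypoxia over normoxia in KO (1 member, Ccnf), the count was 3 with no filter and 3 with DESeq2, both with Ube2c added, and 0 with limma on log2(RPKM + 1), with limma on log2(RPKM + 0.1), in the fit to the libraries compared and in the 9 Y-positive libraries. It ran from 0 to 2 on leaving out each library. For KO over flox averaged over oxygen (5 members), the count was 3 with limma on log2(RPKM + 1), 3 with limma on log2(RPKM + 0.1), 1 in the 9 Y-positive libraries, and 3 to 6 on leaving out each library. Of 9 other settings for this average, Ube2c and Cdc20 were called under 8, Cdk1 under 7, and Cenpf and Mcm3 under 6. For hypoxia over normoxia averaged over genotype (1 member), it was 0 under both limma settings, and 0 to 1 on leaving out each library, with 0 without flox hypoxia replicate 1. The causes were not tested.

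The deviations of libraries with equal replicate numbers in the titles correlated at -0.03 to 0.17. The highest values (0.17, 0.098 and 0.088) were between replicate 3 of KO hypoxia, KO normoxia and flox normoxia, which all held Xist. These low correlations do not settle whether the numbers pair libraries. With a replicate block, in which KO hypoxia replicate 4 is alone, the count was 4 in hypoxia, with Mki67 in place of Cdk1, 0 for hypoxia over normoxia in KO and 3 for the average over oxygen.

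Depth limits the sparse members: mitotic genes had 6 to 438 counts per library and Esco2 had 3 to 23, with intervals such as -0.52 to 1.02 for Ccnb1 in hypoxia. The scale of log2(RPKM + 1) shrinks such low genes, and the median of mitotic genes in hypoxia was 0.09 on it, against 0.37.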

Other observations

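Among the brakes of the cycle, Btg2, an antiproliferative immediate early gene, rose in hypoxia in both genotypes. It averaged 58.5 ± 11.5 CPM in KO hypoxia (SD, n = 4) and 22.4 ± 2.23 CPM in KO normoxia (n = 3), and 77.2 ± 3.39 CPM in flox hypoxia and 23.4 ± 12.7 CPM in flox normoxia (n = 3 each). The log2 fold changes of hypoxia over normoxia were 1.39 ± 0.24 in KO and 1.71 ± 0.25 in flox (SE, edgeR adjusted p = 0.0199 and 0.0310). Btg1, of the same family, rose by 0.24 ± 0.05 in KO (edgeR adjusted p = 0.0469), and Tob1, a related gene, by 0.37 ± 0.08 averaged over genotype (edgeR adjusted p = 0.0425). E2f7, an E2F that represses cell cycle genes, was higher in KO averaged over oxygen, at 0.89 ± 0.22 (edgeR adjusted p = 0.0130), with 0.672 to 1.14 CPM in KO and 0.347 to 0.600 CPM in flox in hypoxia.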
